A study of Mus musculus with 12 samples.

Results

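A set of 41 genes of the interferon response and of class I antigen presentation was followed through 12 RNA-seq libraries of cultured mouse primary neural stem cells. The genes were taken by symbol from a list chosen with earlier results of these data known. It held 4 transcription factors, 4 sensors of foreign nucleic acid, 12 antiviral effectors and 6 genes of the ISG15 system and related regulators. The others were 3 guanylate-binding proteins, 6 other interferon-induced genes and 6 genes of class I antigen presentation. All 41 were found among 54356 annotated genes, and 37 of them were among the 16043 genes that passed a filter on low counts and were tested (Zbp1, Mx1, Trim25 and Psmb8 did not pass). Cells were wild type or labelled Chd5-/-, and both were grown in fibroblast growth factor 2 plus epidermal growth factor before that medium was replaced by neurobasal medium with B-27. RNA was taken 3 h or 48 h after the change, with 3 libraries for each of the 4 groups. No interferon or infection appears among the labelled treatments. The labels leave out the deleted part of Chd5, whether lines were single clones, and whether numbered replicates were separate cultures or animals, so p-values measure only the spread between these libraries, which may be technical.

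Type I interferons, such as interferon beta, act through surface receptors and the kinases JAK1 and TYK2. They lead to a complex with STAT2 and IRF9 that binds the interferon-stimulated response element (ISRE), whereas interferon gamma acts mainly through the gamma-activated sequence (GAS). Targets of interferons include sensors of viral RNA, proteins that block viral replication, and the machinery that cuts peptides and shows them on class I molecules. Neural cells without infection generally keep class I molecules low.

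Estimated reads numbered 14.11 to 18.71 M a library, and 3 libraries stood apart from the others of their group. Wild-type replicate 1 at 3 h had a read-weighted mean transcript length of 1805 bases, against 3040 to 3304 in the other 11. Replicate 2 at 48 h of both genotypes held mitosis genes at a mean log2(CPM + 1) of 7.15 (wild type) and 6.98 (labelled Chd5-/-), whereas replicates 1 and 3 lay at 3.35 to 3.4. CPM here is counts per M reads of scaled library size. Of the 10 neural stem cell markers, none was at 0 in all libraries; Sox2 lay between 23.4 and 202 CPM and Nes between 322 and 1890 CPM. The level of Chd5 did not show a loss. It ranged over 3.54 to 4.66 CPM in wild type at 3 h and over 5.25 to 7.06 CPM in libraries labelled Chd5-/- (0.61 ± 0.31 SE on the log2 scale, 3 libraries a group, edgeR adjusted p = 0.257), and at 48 h the difference was -0.66 ± 0.31 (adjusted p = 0.467). "Labelled Chd5-/-" therefore refers to the deposited genotype throughout.

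Promoter sequence shows what several of these genes share apart from expression. Sequences of the 250 bases before the gene start were taken from RefSeq on build GRCm38.p6 for the 32 genes that matched by symbol. Dhx58, Zbp1, Mx1, Mx2, Usp18, Parp9, Parp14, Ifi27 and Rtp4 had no entry. The ISRE core was searched as GAAA, any 2 bases, GAAA on either strand (TTTC, any 2 bases, TTTC), and overlapping matches were counted. It occurred in 13 of 32 (40.6%, Wilson 95% interval 25.5% to 57.7%), against 3.46% of 27025 genes with a promoter in the table. The GAS pattern TTCNNNGAA, which is its own reverse complement, occurred in 7 of 32 (21.9%), against 8.13% of all. Within the 100 bases nearest to the start the shares were 18.8% and 1.14% for the ISRE core. A match is a description of letters, not of a bound site. The 8 stretches below are shown because they belong to genes described later; each runs 5′ to 3′ on the gene's strand, with the matches to the ISRE core in capitals.
Isg15 (chr4:156200860-156200911, minus strand): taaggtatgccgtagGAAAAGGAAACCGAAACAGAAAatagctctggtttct
Ifit1 (chr19:34640770-34640828, plus strand): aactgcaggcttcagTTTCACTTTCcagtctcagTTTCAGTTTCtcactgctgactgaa
Ifit3 (chr19:34583358-34583431, plus strand): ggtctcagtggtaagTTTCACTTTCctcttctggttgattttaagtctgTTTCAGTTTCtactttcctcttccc
Ifit3b (chr19:34607754-34607827, plus strand): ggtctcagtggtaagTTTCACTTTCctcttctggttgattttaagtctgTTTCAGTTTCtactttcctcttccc
Oas1a (chr5:120907526-120907560, minus strand): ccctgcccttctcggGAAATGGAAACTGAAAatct
Rsad2 (chr12:26456548-26456587, minus strand): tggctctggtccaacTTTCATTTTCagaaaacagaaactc
Gbp2 (chr3:142620589-142620628, plus strand): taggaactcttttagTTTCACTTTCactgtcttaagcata
B2m (chr2:122147533-122147572, plus strand): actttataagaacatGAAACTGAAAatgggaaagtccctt

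Isg15 carried 3 overlapping matches in a run and Oas1a carried 2. The printed stretches of Ifit3 and its neighbour Ifit3b were identical over 74 bases. The other 5 genes with a match were Gbp3, Gbp7, Cxcl10, Bst2 and Stat2. Neither Ifit2 nor Tap1, described below for their difference between genotypes, had an ISRE core in this window, and Ifit2 held a GAS pattern starting 241 bases before the gene start.

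Most of the 41 genes were transcribed at a low level. On the per-length scale (TPM, transcripts per M), the highest median levels over the 12 libraries were 262 TPM for Ifi27, 200 TPM for B2m, which encodes the light chain of class I molecules, 54.0 TPM for the class I heavy chain gene H2-K1, 17.1 TPM for the guanylate-binding GTPase gene Gbp3 and 16.4 TPM for the heavy chain gene H2-D1. All other medians were at or below 8.38 TPM (Stat2). The mean log2(CPM + 1) of the 41 genes in replicates 1, 2 and 3 at 3 h was 2.89, 2.9 and 2.84 for wild type, whereas libraries labelled Chd5-/- gave 2.25, 2.24 and 2.23. The 48 h values were 2.62, 3.08 and 2.65 for wild type, whereas libraries labelled Chd5-/- gave 2.71, 5.08 and 2.72. The wild-type values at 3 h lay above those labelled Chd5-/-, and 1 library at 48 h, replicate 2 labelled Chd5-/-, lay far above the other 11.

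**Figure D1:**
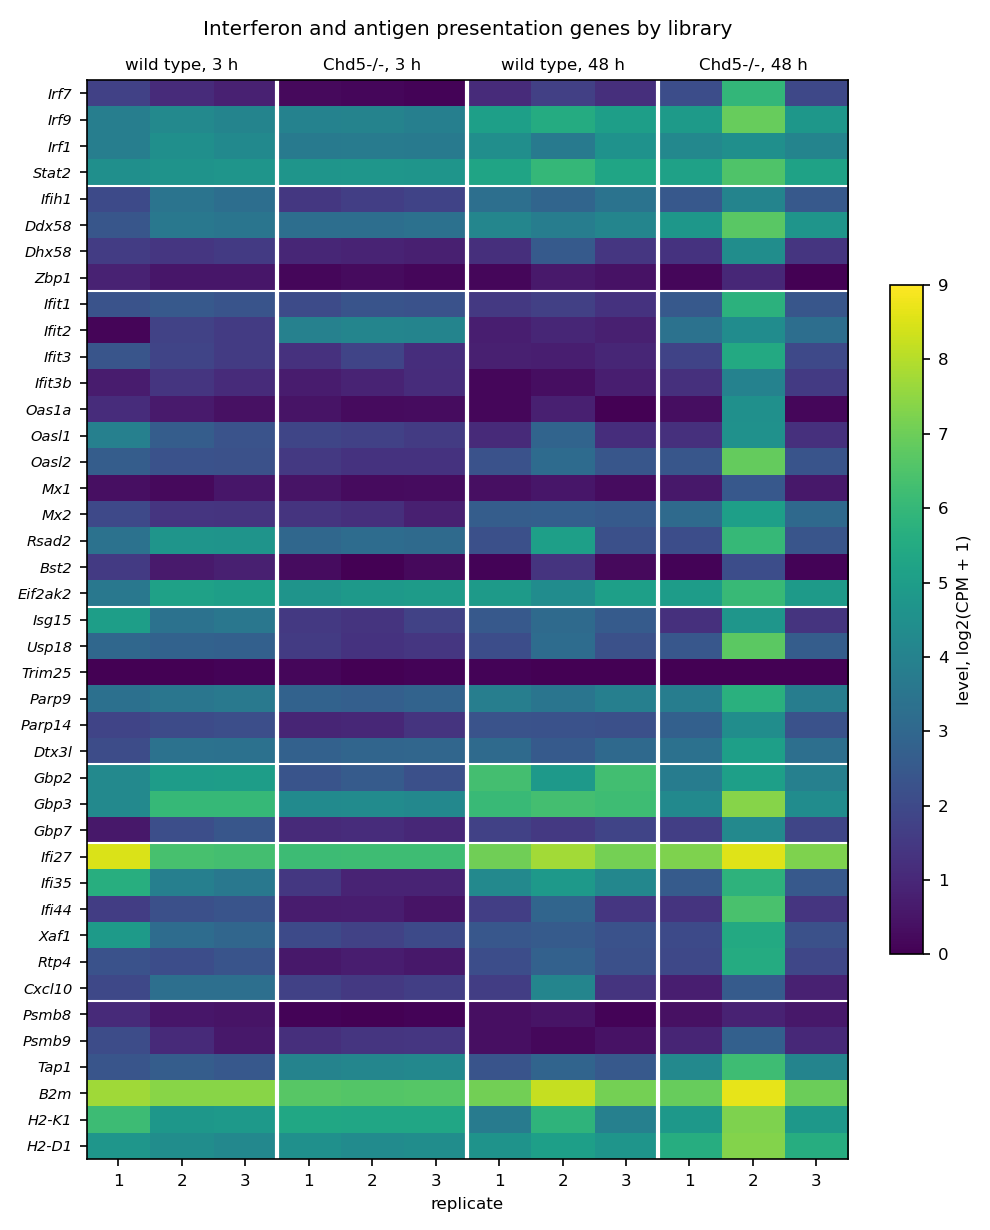
Heat map of the level, log2(CPM + 1), of the 41 genes (rows, grouped by role) in the 12 libraries (columns, by group and replicate). Replicate 2 labelled Chd5-/- at 48 h is the brightest column, with a mean of 5.08 against 2.23 to 3.08 in the other libraries.

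In that library nearly the whole set was raised together. Set against the mean of its group mates, replicates 1 and 3, 36 of the 37 tested genes were at least 1 higher on the log2(CPM + 1) scale and none was at least 1 lower. Among all tested genes, 8.24% were that much higher and 7.77% that much lower. The median difference of the 37 was 2.08, and differences ran from 0.34 for Irf1 to 5.04 for Ifi44. This is 1 library against 2, with no test. The set was chosen with the rise in this library already known, so these counts only describe it.

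Transcription factors moved unequally in that library. Irf7, an amplifier of interferon transcription (ENSMUSG00000025498, GRCm38, chromosome 7, 141262706 to 141266481), had 3.41, 61.6 and 2.9 CPM in replicates 1, 2 and 3 labelled Chd5-/- at 48 h. In wild type at 48 h it had 1.16, 2.23 and 1.31 CPM. Replicate 2 was 19.5 times the mean of its mates. Irf9 and Stat2, which encode the DNA-binding and a transactivating part of the complex at the ISRE, had 119 and 90.7 CPM there, against 25.9 to 28.9 and 34.9 to 35.5 CPM in the mates. Irf1, a factor that is best known as a target of interferon gamma, had 17.5, 21.3 and 15.8 CPM, a range that also holds wild-type replicate 1 (20.9 CPM). Irf1 was thus the single tested gene of the set that lay less than 1 above its mates.

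Sensors and antiviral effectors were higher in that library too. Ddx58, which encodes the RNA sensor RIG-I, had 26.3, 103 and 24.8 CPM in the 48 h libraries labelled Chd5-/-, and Dhx58, for the related helicase LGP2, had 1.49, 20.1 and 1.64 CPM. Ifih1, for the sensor MDA5, had 4.64, 15.8 and 4.73 CPM. Oas1a, an oligoadenylate synthetase that activates RNase L (ENSMUSG00000052776, chromosome 5, 120896256 to 120907521), had 0.248, 21.8 and 0.126 CPM. Oasl2, a related gene, had 4.33, 117 and 4.1 CPM, and Rsad2, for the antiviral enzyme viperin, had 3.41, 65 and 4.16 CPM. Ifit1, an inhibitor of translation of foreign RNA, had 4.71, 53.8 and 4.29 CPM. All 11 tested effectors were at least 1 above their mates, with a median of 3.29. Eif2ak2, the kinase PKR, and Ifit2 had the smallest differences among them, 1.14 and 1.05.

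The ISG15 system, the guanylate-binding proteins and the remaining induced genes followed the same pattern. Isg15, a ubiquitin-like modifier (ENSMUSG00000035692, chromosome 4, 156199424 to 156200818), had 1.36, 25.6 and 1.58 CPM. Usp18, which removes that modifier and limits receptor signalling, had 4.46, 106 and 5.36 CPM. Ifi44 (ENSMUSG00000028037, chromosome 3, 151730922 to 151749960) had 1.55, 84.5 and 1.64 CPM, 53.0 times the mean of the mates. Parp9 and Dtx3l, partners in an ADP-ribosylation and ubiquitin ligase complex, had 51.4 and 33 CPM against 13.1 to 13.2 and 8.7 to 9.35 CPM. Gbp3 had 18.5, 162 and 19.9 CPM. Trim25, an E3 ligase of the RIG-I pathway, had 0 reads in all 3 of these libraries and at most 0.112 CPM anywhere.

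Class I genes were higher there as well, from a higher base. B2m (ENSMUSG00000060802, chromosome 2, 122147686 to 122153083) had 120, 407 and 124 CPM in the 48 h libraries labelled Chd5-/-. H2-K1 and H2-D1 had 152 and 160 CPM in replicate 2, against 26.6 to 26.8 and 47.4 to 47.9 CPM in its mates. Tap1, a subunit of the peptide transporter of class I presentation, had 17.9, 72 and 15.6 CPM. Psmb9, an immunoproteasome subunit, had 0.929, 5.74 and 1.07 CPM, and its partner Psmb8 stayed at 0.31 to 0.801 CPM. All 5 tested class I genes were at least 1 above their mates (median 1.75).

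Some of these counts cannot be cleanly split between near-identical genes. Of the 31-base words in its transcripts, Oas1a shared 68.8% with other genes, Ifit3 61.8%, Ifit3b 55.2%, H2-D1 26.7%, H2-K1 22.8% and Gbp7 14.7%. The division of reads within the pair Ifit3 and Ifit3b, between Oas1a and its close copies, and between the class I heavy chains is therefore uncertain.

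**Figure D2:**
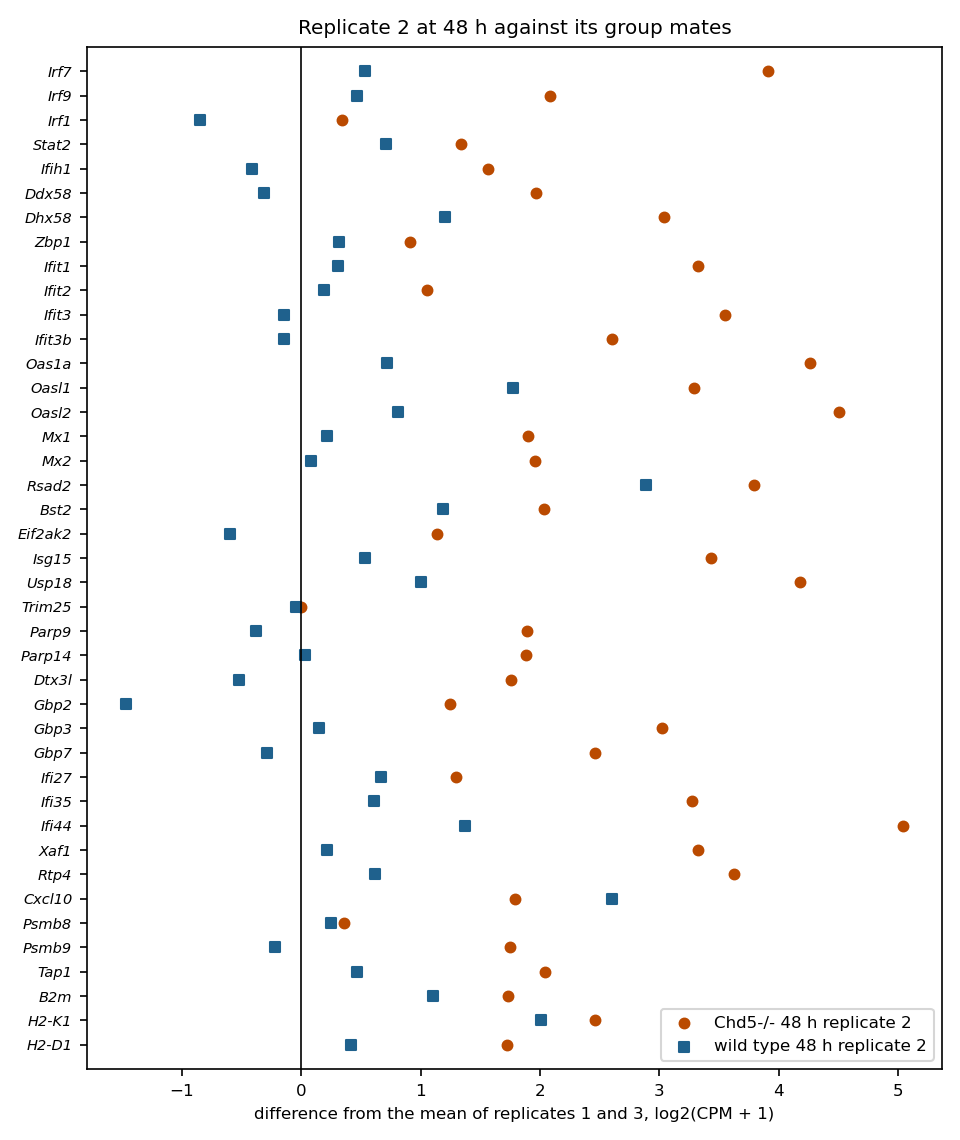
Difference of replicate 2 at 48 h from the mean of replicates 1 and 3 of its own group, log2(CPM + 1), for each of the 41 genes: circles, labelled Chd5-/-; squares, wild type. Circles lie at or right of 0.34 for every tested gene, with a median of 2.08, whereas the squares have a median of 0.47 and lie on both sides of 0.

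Wild-type replicate 2 at 48 h held mitosis genes as high as its counterpart but differed less in the interferon set. Of the 37 tested genes, 8 were at least 1 above their mates and Gbp2 was at least 1 below, against 12.9% and 11.4% of all tested genes; the median was 0.47. Rsad2 had 3.54, 32.8 and 3.58 CPM in wild type at 48 h, and Cxcl10, a chemokine that draws T cells, had 2.08, 16 and 1.53 CPM. H2-K1 had 12.4, 56.4 and 14.1 CPM. Oasl1, Dhx58, Bst2, Ifi44 and B2m were the others at least 1 higher. Irf7, Ifit1 and Ddx58 had 2.23, 2.29 and 12.9 CPM in that library, less than 1 from the mates on the log2(CPM + 1) scale. Set directly against wild-type replicate 2, replicate 2 labelled Chd5-/- was at least 1 higher for 28 of the 37 tested genes and at least 1 lower for Cxcl10 alone (4.94 against 16 CPM), with a median of 2.21; over all tested genes the shares were 6.46% and 6.91%.

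Interferon ligands had no reads in replicate 2 labelled Chd5-/- at 48 h. Summed microglia and macrophage markers lay below those of its mates there, whereas summed lymphocyte and leukocyte markers lay above. Of 14 interferon genes, 11 had 0 reads in all 12 libraries, which allows up to 0.0156 CPM for each (3 counts, counting error only), and none of the 14 had a read in replicate 2, which allows up to 0.2 CPM. The others, Ifnb1, Ifnab and Ifnz, reached at most 0.506 CPM anywhere. The 14 microglia and macrophage markers summed to 4.41 CPM in replicate 2, against 15.4 and 12.7 CPM in its mates and 5.01 to 13.7 CPM in the other groups. Of the 2 that were tested, 1 lay at least 1 above the mates on the log2(CPM + 1) scale and 1 at least 1 below. Tyrobp was at 0 in every library, and Aif1, Cx3cr1, Csf1r, Trem2 and Ptprc were at 0 in replicate 2. The 11 lymphocyte and leukocyte markers summed to 7.28 CPM there, against 3.59 and 3.28 CPM in the mates and 0.855 to 13.1 CPM elsewhere, and 6.41 of the 7.28 CPM was Klrb1c. All 20 mitosis genes lay at least 1 above the mates (median 3.63), as they did in wild-type replicate 2 (median 3.71). Of the 7 astrocyte markers, 5 lay at least 1 below the mates (median -1.22), and 4 did so in wild-type replicate 2 (median -1.84). In bulk RNA, a change in the share of cells of a type and a change in RNA per cell cannot be told apart. The part of these list levels in the level of the interferon set was not tested.

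**Figure D3:**
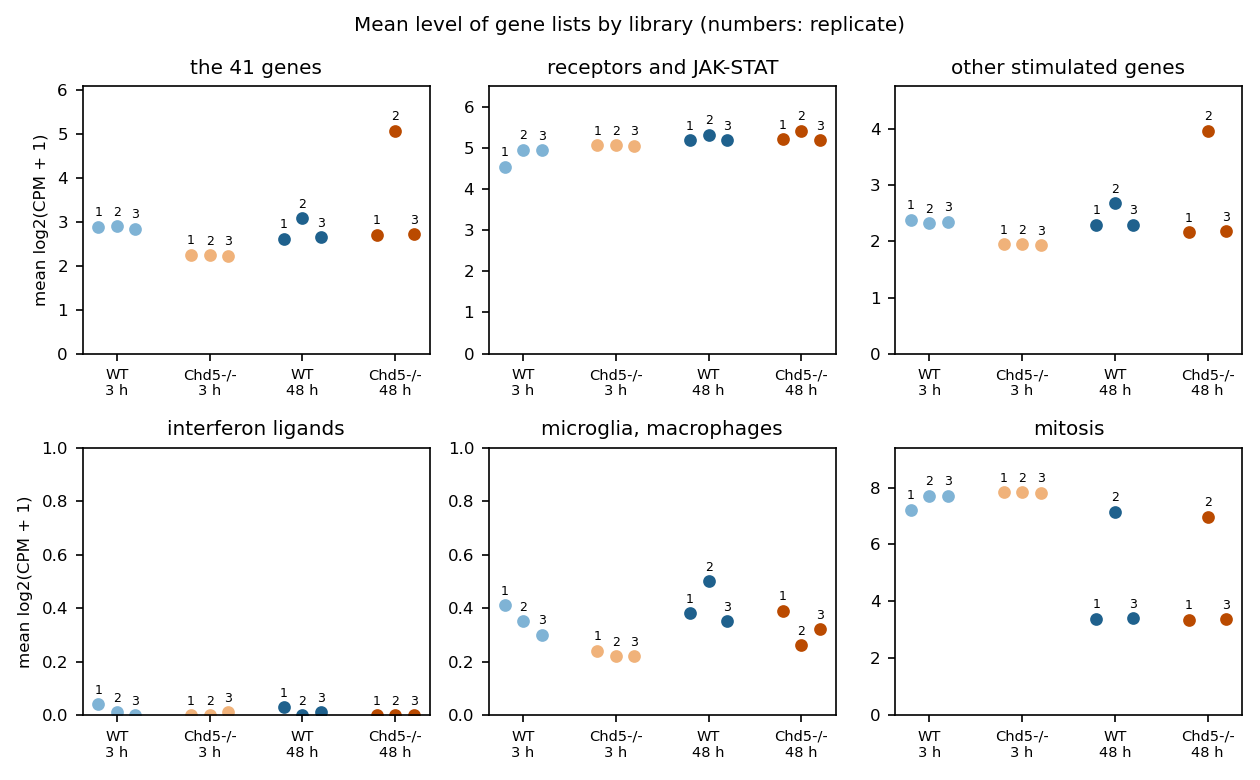
Mean log2(CPM + 1) of the 41 genes and of 5 other gene lists in each library, by group; the number above each point is the replicate. The 41 genes and the other interferon-stimulated genes peak in replicate 2 labelled Chd5-/- at 48 h, mitosis genes peak among the 48 h libraries in replicate 2 of both genotypes, and interferon ligands stay at or under 0.04.

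At 3 h after the medium change, 3 genes of the interferon set differed between genotypes, and most of the others had lower means in the libraries labelled Chd5-/- without passing. With all 12 libraries in the fit, Ifit2 was higher, Gbp2 and Ifi35 were lower, and the other 34 tested genes did not pass (edgeR quasi-likelihood test, adjusted p under 0.05 over all tested genes). Over all tested genes 6.71% passed, 3.24% higher and 3.48% lower. The fold changes of the 37 had a median of -1.28 on the log2 scale, against -0.02 over all tested genes, and 31 lay below 0. In CPM, all 3 libraries labelled Chd5-/- lay below all 3 of wild type for 20 of the 37. For 2, Ifit2 and Tap1, they lay above. Over all tested genes those shares were 21.1% and 23.9%. Per length (TPM), groups of some of the 20 overlapped through wild-type replicate 1, the library with short transcripts, as for Gbp2 and B2m below.

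Markers of other cell types also differed between the 3 h groups. The 7 astrocyte markers summed to 522, 1240 and 1210 CPM in wild type and to 79.3, 77.4 and 80.2 CPM with the Chd5-/- label, and none of the 7 was at 0 in either group. Sparcl1 alone made up 450 to 1150 CPM of the wild-type sums; 1 of the 7 was higher and 3 were lower by the edgeR test. The 9 fibroblast and pericyte markers summed to 13.1 to 15 CPM in wild type and to 573 to 606 CPM with the Chd5-/- label. Of that sum 566 to 598 CPM was the smooth muscle actin gene Acta2, whereas Pdgfrb and Lum were at 0 in all 3 of these libraries. The 8 endothelial markers summed to 3.95 to 8.09 CPM against 1.08 to 1.79 CPM, with Cldn5 at 0 in all 6 libraries. Neuronal markers summed to 234 to 642 CPM against 1190 to 1300 CPM. Their mean log2(CPM + 1) was 2.21, 2.56 and 2.59 in wild type and 2.57, 2.57 and 2.58 with the Chd5-/- label. The neuronal sums therefore do not show a rise across that list. Microglia and macrophage markers summed to 6.38 to 13.7 CPM in wild type against 5.01 to 5.87 CPM. The part of these markers in the 3 h difference of the interferon set was not tested.

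Ifit2, which encodes an RNA-binding protein of the interferon-induced tetratricopeptide family (ENSMUSG00000045932, chromosome 19, 34550694 to 34576419), had 0.101, 2.39 and 1.94 CPM in wild type at 3 h. The libraries labelled Chd5-/- had 14.5, 16.2 and 15.8 CPM, all above wild type (3.34 ± 0.69 SE on the log2 scale, n = 3 per group, edgeR adjusted p = 0.0164). Its neighbours Ifit1 and Ifit3 did not share this: Ifit1 had 3.95, 4.78 and 4.05 CPM in wild type and 3.19, 4.1 and 3.87 CPM in the other group. The Ifit2 call was lost with only the 3 h libraries in the fit (adjusted p = 0.0744) and when any one of the 3 libraries labelled Chd5-/- at 3 h was left out (0.054, 0.0599 and 0.0589). Tap1 (ENSMUSG00000037321, chromosome 17, 34187553 to 34197225) had 4.15, 5.3 and 4.55 CPM in wild type and 15.4, 16.6 and 17.5 CPM with the Chd5-/- label. Those groups also did not overlap, and Tap1 passed once replicates were blocked within the time (1.83 ± 0.35, edgeR adjusted p = 0.0252).

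Gbp2, an interferon-inducible GTPase (ENSMUSG00000028270, chromosome 3, 142620602 to 142638008), had 18, 30.1 and 30.9 CPM in wild type at 3 h and 4.08, 5.05 and 3.59 CPM with the Chd5-/- label. All 3 of the latter were lower in CPM, and the difference passed (-2.64 ± 0.49, edgeR adjusted p = 0.01). It did not pass once replicate 1 or replicate 3 of the Chd5-/- label was left out (adjusted p = 0.0602 and 0.0666). Per length the groups overlapped through wild-type replicate 1, with 1.57, 7.71 and 7.99 TPM against 1.25, 1.76 and 0.942 TPM. Ifi35, a leucine zipper protein (ENSMUSG00000010358, chromosome 11, 101448407 to 101458698), had 49.3, 13.6 and 11.3 CPM against 1.73, 0.884 and 0.854 CPM (-4.4 ± 1.04, adjusted p = 0.0306). In CPM, wild-type replicate 1 was the highest Ifi35 library by far among the 3 h libraries. Per length it had 9.12 TPM, against 7.09 and 6.06 TPM in its mates. Without wild-type replicate 1 the difference was -3.41 (adjusted p = 0.0699). With replicate 1, 2 or 3 of the Chd5-/- label left out the difference was -4.8, -4.23 and -4.21 (adjusted p = 0.0967, 0.138 and 0.139).

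Several other genes had groups that did not overlap but did not pass with all libraries. Irf7 had 2.33, 1.14 and 0.777 CPM in wild type at 3 h and 0.168, 0.126 and 0.0569 CPM with the Chd5-/- label (-3.48 ± 1.3, edgeR adjusted p = 0.144). Isg15 had 32.4, 9.62 and 10.9 CPM against 1.84, 1.58 and 2.39 CPM (-3.18 ± 1.02, adjusted p = 0.0971). Rtp4, a chaperone of membrane receptors (ENSMUSG00000033355, chromosome 16, 23520291 to 23614222), had 3.85, 3.42 and 4.05 CPM against 0.503, 0.631 and 0.512 CPM (-2.77 ± 0.98, adjusted p = 0.128). All 3 genes passed when replicate 2 labelled Chd5-/- at 48 h was left out, a library that is in neither group compared but enters the shared estimate of spread. Without it, 2 tested genes were higher (Ifit2 and Tap1) and 11 lower (Irf7, Ifih1, Oasl2, Isg15, Usp18, Parp14, Gbp2, Ifi35, Ifi44, Xaf1 and Rtp4), against 3.52% higher and 3.63% lower over all tested genes. With only the 3 h libraries in the fit, 10 were lower and 1 was higher (3.09% and 3.67% of all tested genes). DESeq2 on all libraries called 2 higher and 2 lower (5.6% and 7.44%). Here and below, genes to which DESeq2 gave no adjusted p count as not called. A low DESeq2 count therefore does not show that genes were unchanged.

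Deviations of same-numbered libraries from group means correlated weakly between genotypes at 3 h. The correlation was stronger at 48 h, where replicate 2 of both genotypes stood apart. Differences were also taken within replicate numbers, though the labels name no pairing. At 3 h, the median of the 37 differences on the log2(CPM + 1) scale was -0.63, -0.72 and -0.72 for numbers 1, 2 and 3, against 0.08, 0 and 0 over all tested genes. At least 1 lower were 13, 13 and 11 of the 37, against 21.6%, 4.54% and 4.24% of all tested genes, and at least 1 higher were 3, 2 and 2, against 26.2%, 4.5% and 4.63%. Number 1 includes the wild-type library with short transcripts. With replicates blocked within each time, 2 of the 37 passed as higher at 3 h (Ifit2 and Tap1) and 4 as lower (B2m, Bst2, Gbp2 and Ifi35), against 4.48% and 4.15% of all tested genes. B2m had 207, 169 and 170 CPM in wild type and 100, 95.4 and 97.4 CPM with the Chd5-/- label at 3 h. The blocked difference was -0.89 ± 0.2 (edgeR adjusted p = 0.0422). Per length, B2m had 71.4, 199 and 200 TPM against 115, 114 and 115 TPM. On that scale the wild-type library with short transcripts lay below the Chd5-/- label.

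**Figure D4:**
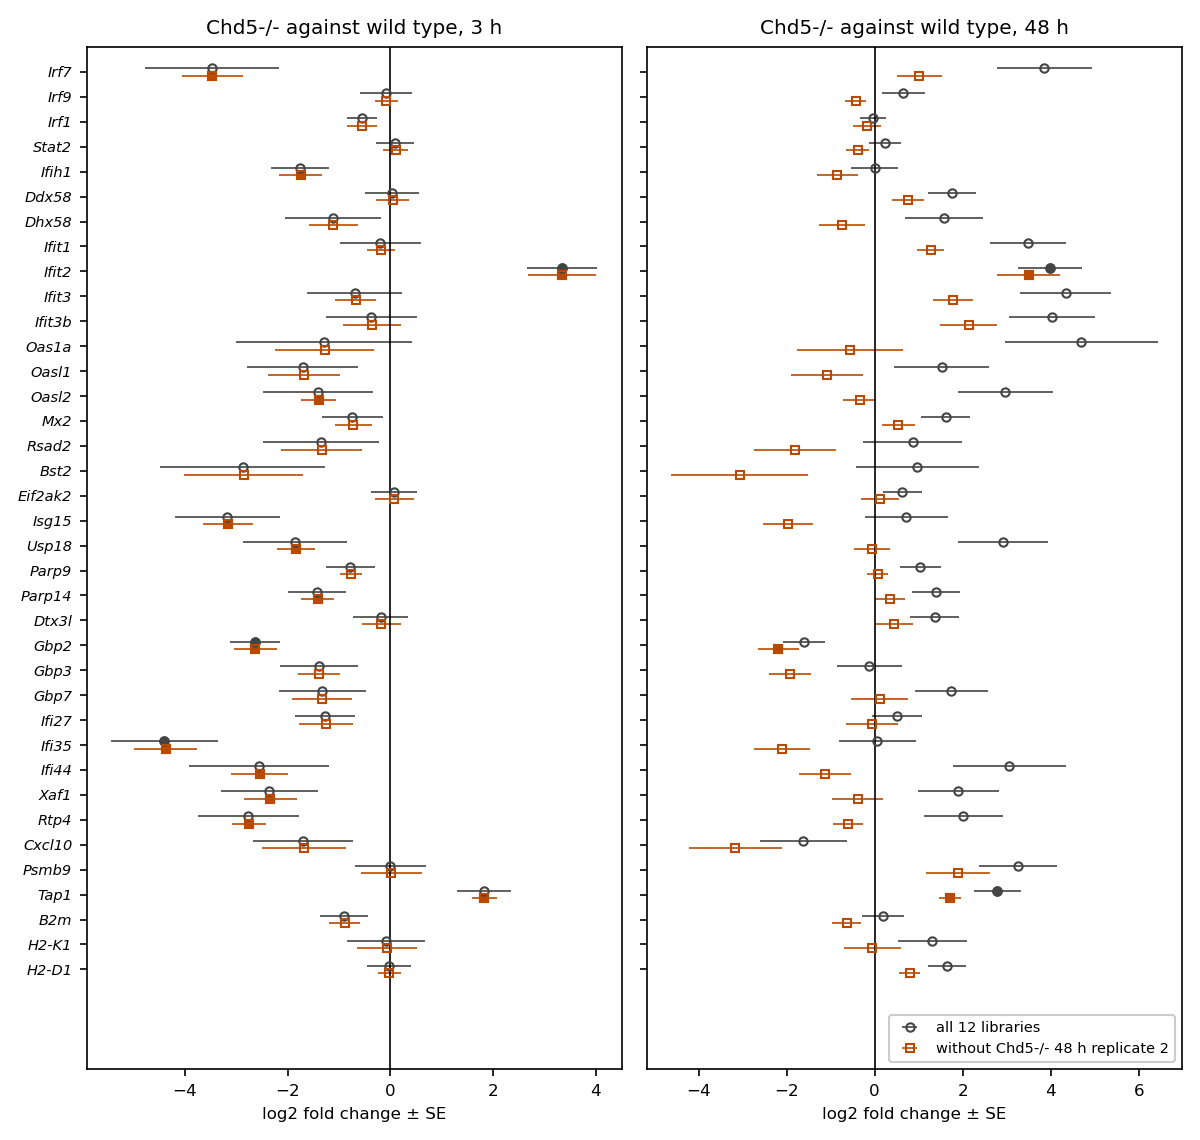
Log2 fold change ± SE of the libraries labelled Chd5-/- against wild type for the 37 tested genes at 3 h (left) and 48 h (right), with all 12 libraries (circles) and without replicate 2 labelled Chd5-/- at 48 h (squares); filled symbols passed at an adjusted p under 0.05. At 3 h both fits sit on the same side, with medians of -1.28 and -1.26, and at 48 h the median moves from 1.52 to -0.17.

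At 48 h, most genes of the set had a higher mean in the libraries labelled Chd5-/-, and most of that lay in 1 library. The median log2 fold change of the 37 was 1.52 with all libraries and -0.17 without replicate 2 labelled Chd5-/-, against -0.02 and -0.05 over all tested genes. The fit without it kept wild-type replicate 2, the other 48 h library with high mitosis genes. In that library the set had a median difference of 0.47 from its mates on the log2(CPM + 1) scale. With all libraries 2 genes passed, Ifit2 and Tap1, both higher, against 1.53% higher and 1.21% lower among all tested genes; the same 2 passed with replicates blocked within the time (1.67% and 1.46%). DESeq2 called 6 higher and 1 lower (3.02% and 2.72%). Without replicate 2 they passed again and Gbp2 passed as lower, against 1.38% higher and 1.03% lower among all tested genes. Within replicate numbers the median difference was 0.09, 2.21 and 0.04 for numbers 1, 2 and 3. At least 1 higher were 7, 28 and 4 of the 37 (3.44%, 6.46% and 3.35% of all tested genes) and at least 1 lower were 4, 1 and 4 (3.6%, 6.91% and 3.74%).

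Ifit2 had 0.672, 0.944 and 0.738 CPM in wild type at 48 h and 9.47, 19.6 and 8.45 CPM with the Chd5-/- label. The groups did not overlap, with or without replicate 2, and the log2 fold change was 3.98 ± 0.72 with it (edgeR adjusted p = 0.0151) and 3.5 ± 0.71 without it (adjusted p = 0.0349). Tap1 had 4.09, 6.47 and 4.71 CPM in wild type and 17.9, 72 and 15.6 CPM with the Chd5-/- label (2.79 ± 0.53, adjusted p = 0.019; 1.71 ± 0.26 without replicate 2, adjusted p = 0.0107). Both calls were lost without wild-type replicate 1 at 48 h (adjusted p = 0.0791 for Ifit2 and 0.0954 for Tap1) and without wild-type replicate 3 (0.0764 and 0.0933). The Tap1 call was also lost with only the 48 h libraries in the fit (2.78, adjusted p = 0.148). Gbp2 had 79, 27.4 and 76.6 CPM in wild type and 12.7, 33.2 and 14.1 CPM with the Chd5-/- label. Its groups overlapped only through both replicates 2, and without replicate 2 labelled Chd5-/- it was lower (-2.19 ± 0.47, adjusted p = 0.0436). Gbp3 had 68.1, 78.1 and 72.5 CPM against 18.5, 162 and 19.9 CPM, so the 2 mates lay below wild type and replicate 2 above it.

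For 11 of the 37 tested genes all libraries labelled Chd5-/- at 48 h lay above all of wild type, and for none below (12.3% and 10.9% of all tested genes). Without replicate 2 labelled Chd5-/- the counts were 11 above and 12 below (24.8% and 21.8%). The 11 were Irf7, Ddx58, Ifit1, Ifit2, Ifit3, Ifit3b, Mx2, Dtx3l, Psmb9, Tap1 and H2-D1 in both cases. The 12 below were Irf9, Stat2, Ifih1, Isg15, Gbp2, Gbp3, Ifi35, Ifi44, Xaf1, Rtp4, Cxcl10 and B2m. H2-D1, for example, had 23.9, 33 and 25 CPM in wild type and 47.4, 160 and 47.9 CPM with the Chd5-/- label, a difference that did not pass (1.64 ± 0.43, edgeR adjusted p = 0.0837).

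Between 3 h and 48 h, genes of the set rose in the libraries labelled Chd5-/-. With all libraries 17 of the 37 tested genes rose and none fell, against 14.1% and 8.03% of all tested genes, and the median was 2.24 against 0.04. The 17 were Irf7 and Irf9, the sensors Ddx58, Dhx58 and Ifih1, the effectors Ifit3, Oasl2 and Mx2, the regulators Usp18, Parp9 and Parp14, Gbp2 and Gbp7, Ifi35, Ifi44 and Rtp4, and H2-D1. Without replicate 2 at 48 h, 12 rose and none fell (14.9% and 10.2% of all tested genes) and the median was 0.63 against 0.02. The 12 were all among the 17; Dhx58, Ifih1, Ifit3, Gbp7 and Ifi44 no longer passed. With all libraries limma-voom called 9 as higher and none as lower (13.0% and 9.72%). The edgeR count was 8, 7 and 8 without replicate 1, 2 or 3 labelled Chd5-/- at 3 h. Shares of all tested genes are not given for those fits, so the drop from 17 cannot be read as particular to the set.

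Other marker lists moved over the same interval in these libraries. The astrocyte markers went from 77.4 to 80.2 CPM at 3 h to 2510, 899 and 2500 CPM at 48 h, and 6 of the 7 rose. Fibroblast and pericyte markers went from 573 to 606 CPM, mostly Acta2, to 8.24, 16.5 and 7.32 CPM. Mitosis genes summed to 5410 to 5530 CPM at 3 h and to 219, 3100 and 224 CPM at 48 h. Microglia and macrophage markers summed to 5.01 to 5.87 CPM and then to 15.4, 4.41 and 12.7 CPM. Their part in the rise of the interferon genes was not tested.

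Irf7 had the largest of these rises with all libraries (7.5 ± 1.37, n = 3 per group, edgeR adjusted p = 0.00417), and without replicate 2 at 48 h its rise was 4.65 ± 0.61 (adjusted p = 0.00116). In CPM it went from 0.168, 0.126 and 0.0569 to 3.41, 61.6 and 2.9. Mx2, a dynamin-like antiviral GTPase, had 1.56, 1.33 and 0.74 CPM at 3 h and 7.74, 32.6 and 7.51 CPM at 48 h (3.71 ± 0.62, adjusted p = 0.00269; 2.64 ± 0.39 without replicate 2, adjusted p = 0.00187). Rtp4 rose by 4.95 ± 1.05 (adjusted p = 0.00809) and by 2.33 ± 0.35 without replicate 2 (adjusted p = 0.00198). Parp14, an ADP-ribosyltransferase, rose by 3.11 ± 0.58 (adjusted p = 0.0046) and by 2.04 ± 0.34 without it (adjusted p = 0.00324). For 24 of the 37 all 48 h libraries lay above all 3 h libraries, and for none below (32.2% and 32.4% of all tested genes). Without replicate 2, 24 lay above and 7 below, the latter being Ifit2, Oasl1, Rsad2, Isg15, Cxcl10, Psmb9 and H2-K1 (43.2% above and 42.5% below over all tested genes).

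In wild type none of the 37 passed between 3 h and 48 h, where 12.7% of all tested genes rose and 10.1% fell in edgeR. DESeq2 called 0 higher and 1 lower (16.0% and 14.2% of all tested genes), and limma-voom 0 and 0 (12.1% and 8.78%). The median was 0.06 against 0.09 over all tested genes. Without replicate 2 labelled Chd5-/- at 48 h, which is in neither group but enters the shared estimate of spread, Irf9, Mx2 and Stat2 rose and Ifit1, Ifit3, Isg15, Psmb9 and Xaf1 fell (13.4% and 10.2% of all tested genes). Mx2, for instance, had 2.94, 1.65 and 1.55 CPM at 3 h and 5.37, 5.46 and 4.88 CPM at 48 h (1.37 ± 0.36, edgeR adjusted p = 0.0233 in that fit). Wild-type replicate 1 at 3 h was the library with short transcripts. On the log2(CPM + 1) scale it lay at least 1 above its mates for 7 of the 37. It lay at least 1 below for 9, against 20% above and 23.5% below over all tested genes. Among the higher were Ifi27, Ifi35, Xaf1 and Isg15, and among the lower Gbp3, Gbp7 and Ifit2.

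The change over time differed between genotypes for none of the 37 with all libraries (edgeR interaction test). Of all tested genes 0.231% passed, 0.137% more positive and 0.0935% more negative in the libraries labelled Chd5-/-. DESeq2 called 2 more positive and 0 more negative (1.32% and 1.08% of all tested genes), and limma-voom 0 and 0 (0.137% and 0.106%). Without replicate 2 labelled Chd5-/- at 48 h, Irf7 alone passed (4.48 ± 0.78, edgeR adjusted p = 0.0416), where 0.59% of all tested genes passed. The genotype contrasts and the time contrasts share their libraries and are not independent of each other.

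Leaving out all 3 libraries that stood apart left 2 libraries in 3 of the groups, and 52.5% of all tested genes then passed between genotypes at 3 h, 47.2% at 48 h and 40.4% in the interaction. Of the 35 genes of the set tested in that fit, 4 were higher and 24 lower at 3 h (27.2% and 25.3% of all tested genes), and 13 were higher and 9 lower at 48 h (25.6% and 21.6%). Over time 9 rose and 16 fell in wild type (37.6% and 38.3%), and 21 rose and 5 fell with the Chd5-/- label (38.9% and 40.1%). In the interaction 25 were more positive and none more negative (19.3% and 21.1%). Irf7 was lower at 3 h (-2.95 ± 0.46, edgeR adjusted p = 0.000117) and higher at 48 h (1.36 ± 0.3, adjusted p = 0.00231) in the libraries labelled Chd5-/-. Isg15 was lower at both times (-2.39 ± 0.16 and -1.72 ± 0.21, adjusted p = 4.74e-08 and 2.21e-05), as was Gbp3 (-1.79 ± 0.06 and -1.86 ± 0.06, adjusted p = 2.79e-11 and 1.31e-10).

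Genes of the same pathway outside the set were counted from lists of receptors, adaptors, limiters and further targets. At 3 h, of 10 tested receptor and JAK-STAT genes none passed (edgeR, with 0.18 as the median log2 fold change), where 3.24% of all tested genes were higher and 3.48% lower, and of 10 upstream sensors and adaptors Tlr4, the receptor for bacterial lipopolysaccharide, was lower. It had 2.94, 14 and 15.6 CPM in wild type and 0.279, 0.379 and 0.0569 CPM with the Chd5-/- label (-5.48 ± 0.83, adjusted p = 0.00296). Of 10 limiters of interferon signalling, the phosphatase gene Ptpn6 was lower (-2.3 ± 0.35, adjusted p = 0.00317), with 5.06, 4.33 and 3.33 CPM against 0.727, 0.758 and 1.08 CPM. Of 35 other interferon-stimulated genes Ly6e and Slfn5 were lower (-3.81 ± 0.9 and -2.57 ± 0.68, adjusted p = 0.03 and 0.0483). Ly6e had 55.6, 17.8 and 16.3 CPM in wild type and 1.79, 2.34 and 2.22 CPM in the other group, and Slfn5 had 42.5, 7.52 and 8.27 CPM against 3.3, 3.35 and 3.13 CPM. For both, wild-type replicate 1, the library with short transcripts, was the highest, and without it the differences were -3.0 ± 0.87 and -1.27 ± 0.42 and no longer passed (adjusted p = 0.0635 and 0.104). Both calls were also lost without any one of the 3 h libraries labelled Chd5-/- (adjusted p of 0.122 to 0.131 for Ly6e and 0.164 to 0.181 for Slfn5). That of Slfn5 was lost as well without any one of the 48 h libraries labelled Chd5-/- (0.0563 to 0.0718) and without wild-type replicate 1 or 3 at 48 h (0.0734 and 0.0667). Of 17 other class I genes none passed at 3 h.

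At 48 h the exonuclease gene Isg20 was the single one of 35 other stimulated genes to pass (1.94 ± 0.4, edgeR adjusted p = 0.0272), and Tap2 the single one of 17 other class I genes (2.22 ± 0.47, adjusted p = 0.0314). Tap2 encodes the partner of Tap1 in the peptide transporter. It had 6.99, 4.9 and 3.94 CPM in wild type and 5.98, 5.11 and 5.24 CPM in the other group at 3 h, and at 48 h 4.95, 7.21 and 4.09 CPM against 14.7, 46.5 and 14.5 CPM. Unlike Tap1, its groups overlapped at 3 h and stood apart at 48 h. Over all tested genes 1.53% were higher and 1.21% lower at 48 h. Without replicate 2 labelled Chd5-/-, none of the 17 passed at 48 h, and 2 of the 35 were lower, against 1.38% higher and 1.03% lower among all tested genes. The differences were then 1.43 ± 0.32 for Tap2 (edgeR adjusted p = 0.0551) and 1.92 ± 0.44 for Isg20 (adjusted p = 0.0574). Among the other libraries left out in turn, the Tap2 call was lost without wild-type replicate 1 or 3 at 48 h and without any one of the 3 h libraries labelled Chd5-/- (adjusted p of 0.06 to 0.145). The Isg20 call was lost in those cases and without replicate 1 or 3 labelled Chd5-/- at 48 h (0.0597 to 0.115).

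Over time in the libraries labelled Chd5-/-, 17 of the 35 other stimulated genes rose and none fell, with a median of 1.86, against 14.1% and 8.03% of all tested genes. Without replicate 2 at 48 h, 10 rose and 3 fell, with a median of 0.35, against 14.9% and 10.2%. Gbp6, a guanylate-binding protein gene, had 1.79, 1.07 and 1.37 CPM at 3 h and 13.1, 61.1 and 13.8 CPM at 48 h (4.37 ± 0.66, edgeR adjusted p = 0.0016; 3.23 ± 0.4 without replicate 2, adjusted p = 0.000877). Parp10 had 0.671, 0.884 and 0.683 CPM against 6.75, 46 and 7 CPM (4.73 ± 0.78, adjusted p = 0.00254; 3.18 ± 0.38 without replicate 2, adjusted p = 0.000759). Among the receptors and JAK-STAT genes, the kinase gene Tyk2 rose with all libraries (0.61 ± 0.19, adjusted p = 0.0405). It had 19.9, 19.7 and 18.2 CPM at 3 h and 27.4, 33.2 and 27.3 CPM at 48 h, so the groups did not overlap with or without replicate 2. Without that library the difference was 0.5 ± 0.2 (adjusted p = 0.0979). The call was lost on leaving out each other library in turn except wild-type replicate 1 at 3 h and wild-type replicate 2 at 48 h (adjusted p of 0.0554 to 0.159). In replicate 2 labelled Chd5-/- at 48 h, 29 of the 35 other stimulated genes and 8 of the 17 other class I genes lay at least 1 above the mates, against 1 of 9 targets of NF-kB and 0 of 3 other interferon regulatory factors.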

How the data were processed

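RNA of 12 libraries, 3 per genotype and time, was sequenced from libraries of the TruSeq Stranded mRNA type, per the labels. Per the submitters' processing notes Salmon made each deposited table, which holds estimated counts per transcript and TPM, a per-length abundance scaled to a fixed total per library, per the file headers. Salmon's version, settings and index: not given in the sources. Of 140658 transcripts, 140137 matched GENCODE M21 (GRCm38); the 521 others held 0.135% to 0.181% of reads and were left out. The deposited estimated counts were summed over each gene and rounded; deposited TPM was summed for levels per length. 

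Genes were filtered with filterByExpr (minimum count 10, total 15), scaled with TMM factors and fitted in edgeR 4.0.16 (R 4.3.3) with 1 mean per group over all 12 libraries. The 5 contrasts were tested by two-sided quasi-likelihood F tests with Benjamini-Hochberg adjustment over all tested genes (threshold 0.05). The edgeR fit was tested on simulated counts with the same spread in every library and genes changed only in the Chd5-/- label at 3 h. That test did not cover libraries that stand apart from their group, as in these data. Levels are CPM of TMM-scaled library size; log2(CPM + 1) uses a pseudocount of 1. A library's difference from its mates is a description with no test.

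Alternatives were DESeq2 1.42.0, voom weights in limma 3.58.1, RLE scaling, a filter of 1 read, a filter of 1 CPM in 3 libraries, a transcript length offset, only the groups compared, a replicate block, each library left out in turn, and 3 libraries left out together. A replicate block within each time was added after seeing the data. DESeq2 gave some genes no adjusted p, and these were counted as not passing. As a check of pairing, same-numbered libraries of the genotypes were correlated in their deviations from group means: r was 0.261, 0.133 and 0.125 at 3 h and 0.704, 0.788 and 0.705 at 48 h, for numbers 1, 2 and 3. Across times it was between -0.0193 and 0.0199. Deviations within a group balance out, so replicate 2 standing apart in both genotypes at 48 h also raises r for numbers 1 and 3. The check therefore does not show that numbers are pairs, and the blocked fits are alternatives only.

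The 41 genes, the other gene lists and the tests were chosen with earlier results of these data known. All 41 could be named with values in every library; of each other list, up to 4 genes per contrast with the smallest p that passed, and any gene that alone passed. Markers and the interferon genes named one by one fall outside that rule; their values had been seen when they were chosen. Depth was 14.11 to 18.71 M reads; limits for a count of 0 cover counting error only, since reads are not independent molecules.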

Additional observations from a re-analysis of the deposited data

Results flagged for a closer look

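Irf7 differed between the times in its genotype difference: all 3 libraries labelled Chd5-/- lay below wild type at 3 h and all 3 lay above it at 48 h. The interaction was 7.33 ± 1.68 on the log2 scale (edgeR adjusted p = 0.127), so the difference did not pass with all libraries. Without replicate 2 labelled Chd5-/- at 48 h it was 4.48 ± 0.78 (adjusted p = 0.0416). The levels at 3 h in the libraries labelled Chd5-/- were 0.168, 0.126 and 0.0569 CPM, few reads in each.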

How the results depend on the processing

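Counts are of tested genes of the set that passed. Where no share of all tested genes is given above for a fit, its count cannot be read as particular to the set. At 3 h, 1 gene was higher and 2 were lower with the Chd5-/- label. DESeq2 gave 2 higher, only the groups compared gave 10 lower, and omitting the 3 libraries that stood apart gave 4 higher and 24 lower. Leaving out 1 library at a time gave 0 to 2 higher and 0 to 11 lower. At 48 h (2 higher, 0 lower), DESeq2 gave 6 and 1, only the groups compared 1 higher, no filter 5 higher, and omission of 3 libraries 13 and 9; with 1 library left out the ranges were 0 to 5 and 0 to 1. Over time in wild type (0 and 0), the length offset gave 1 higher, DESeq2 1 lower, and omission of 3 libraries 9 and 16, with ranges of 0 to 3 and 0 to 5. Over time in the libraries labelled Chd5-/- (17 and 0), voom gave 9 higher and omission of 3 libraries 5 lower; the range was 7 to 23 higher and 0 lower. The interaction (0 and 0) gave 2 higher in DESeq2 and 25 on omission of 3 libraries, with a range of 0 to 1. Causes were not tested.

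With the replicate block within each time, 2 genes were higher and 4 lower at 3 h, and 2 and 0 at 48 h; a replicate block over all libraries gave 2 higher at 3 h, and no other count moved by over 1.5 times under either block. Of the 22 calls of single genes, 385 values under the alternatives stayed on their side of the threshold, 73 did not, and 0 turned in sign. Only values with an adjusted p were counted. DESeq2 gave 13 of these for the 22 calls. The block within each time gave 5, since it did not test change over time within a genotype. Genes under 1 CPM rest on few reads per library and cannot show small differences at this depth.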
